A study of Mus musculus with 6 samples.

Results

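The genes described are 36 targets of 2 stress response programmes, chosen by symbol: 25 genes that the transcription factor ATF4 is known to induce or that act with it in the integrated stress response, and 11 genes of the oxidative stress response under the factor NRF2. All 36 were found by name among the 23441 genes of a read count table from embryonic mouse retina, and 33 had enough reads to be tested, 22 of the ATF4 type and 11 of the NRF2 type. The table holds 3 libraries of Ronin flox/flox retinae that carry a Cre::GFP transgene on one allele (+/tg), called CKO here, and 3 control libraries with the genotype Ronin flox/flox and no Cre transgene. Ronin is the protein of Thap11, a DNA-binding zinc finger protein of the THAP family. The transgene expresses Cre recombinase fused to GFP in retinal progenitor cells, per the labels, so that cells outside its reach can keep Ronin. All 6 libraries are of polyadenylated RNA from whole retinae at embryonic day 14.5, on a mixed background of C57/B6, SJL/B6, 129/Sv and FVB, so that both groups carry the floxed alleles and the CKO group alone carries the transgene. No label says whether replicates came from separate embryos or litters, and p-values therefore cover only how these libraries scatter, which may be technical in part. In bulk RNA, fewer cells of a type cannot be told apart from less RNA of a gene per cell.

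The integrated stress response begins when one of a family of kinases phosphorylates the translation factor eIF2, which lowers protein synthesis as a whole and raises translation of the Atf4 messenger. ATF4 then induces genes for amino acid synthesis, amino acid transport, mitochondrial folate metabolism and feedback on the response itself, and mitochondrial defects are a known trigger of it. NRF2, the product of Nfe2l2, is held down by KEAP1 until oxidants or electrophiles release it, and it induces genes for glutathione, thioredoxin and NADPH production. Slc7a11 and Hmox1 are known to respond to both factors, so the boundary between the groups is not sharp.

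Library depth lay between 23721052 and 28504391 counted reads. Thap11 itself stood at 11.2, 10.9 and 6.38 CPM (counts per 1000000 reads of the scaled library) in CKO replicates 1 to 3, against 68.3, 82.0 and 71.6 CPM in control replicates 1 to 3. Retinal progenitor markers (9 genes) were present throughout. They summed to 7200.1 to 7659 CPM in the CKO libraries and 7711 to 7998 CPM in the controls, lower in every CKO library. The largest part of this sum was the single gene Ccnd1, at 3371 to 3912 CPM in the CKO and 3943 to 4305 CPM in the controls. By fitted log2 fold change 4 of the 9 were higher in the CKO and 5 lower, with a median of -0.03, beside -0.03 over all genes tested. Lens markers, a list of 19 crystallin and fibre genes, summed to 11209, 66.8 and 837 CPM in CKO replicates 1, 2 and 3, against 13.1 to 21.7 CPM in the controls, where 1 of the 19 had no read. Blood vessel markers (13 genes) summed to 255 to 278 CPM in the CKO and 295 to 354 CPM in the controls. Most of this sum was the single gene Kdr, at 232 to 243 CPM in the CKO and 247 to 306 CPM in the controls. Pigment epithelium markers (10 genes) summed to 51.8 to 54.7 CPM in the CKO and 56.2 to 109 CPM in the controls. Both sums were lower in every CKO library. Some tested markers were separated as lower, with every CKO library below every control. They were 2 of 9 progenitor, 5 of 13 vessel and 2 of 8 pigment epithelium genes, beside 6.91% of all genes tested. None of these 3 lists held a gene separated as higher, and none of their genes was called by edgeR. Ganglion cell markers (10 genes) overlapped in sum, at 4151 to 4367 CPM in the CKO and 3750 to 4922 CPM in the controls. By fitted log2 fold change 6 of the 10 were higher and 4 lower. Only Pou4f2 was separated, as higher, and none was called. Control replicate 2 stood apart from the other libraries, with correlations of log2 CPM of 0.954 to 0.973 with the other 5, and its deviations followed the GC content of transcripts (Spearman's rho 0.51 over 14489 genes, a description across genes within these libraries). The genotypes were compared gene by gene with edgeR's quasi-likelihood test and Benjamini-Hochberg adjustment. At an adjusted p under 0.05 it called 0.192% of 14609 genes higher and 0.705% lower in the CKO.

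Shown first are the promoters of the 4 members that held at least one of 3 short elements and whose CKO and control libraries did not overlap, 2 of them higher in the CKO (Asns and Chac1) and 2 lower (Shmt2 and Vldlr). Sequences are RefSeq promoter windows of build GRCm38.p6, which reach from 250 bases before a gene's start to 50 bases from it on, written 5′ to 3′ on the gene's strand. Windows were found for 30 of the 36 members. Both strands were searched for the ATF4 composite element TGATGNAA, the antioxidant response element TGACNNNGC bound by NRF2, and the element shared by Ronin and ZNF143, which is ACTACA and TCCCA with any 2 bases between them, and no site in a member's window shared a base with another. Capitals mark the matches. In Asns (chr6:7693160-7693459, minus strand) they are the ATF4 element TGATGAAA, first base at position -23 from the start, and on the opposite strand the antioxidant element TGACACTGC, whose leftmost base is at -172. In Chac1 (chr2:119350992-119351291, plus strand) they are TGATGCAA on the opposite strand, leftmost base at -193. In Shmt2 (chr10:127522395-127522694, minus strand) they are the Ronin element ACTACAATTCCCA, first base at -62. In Vldlr (chr19:27216770-27217069, plus strand) they are TGATGCAA on the opposite strand, leftmost base at -200.
Asns: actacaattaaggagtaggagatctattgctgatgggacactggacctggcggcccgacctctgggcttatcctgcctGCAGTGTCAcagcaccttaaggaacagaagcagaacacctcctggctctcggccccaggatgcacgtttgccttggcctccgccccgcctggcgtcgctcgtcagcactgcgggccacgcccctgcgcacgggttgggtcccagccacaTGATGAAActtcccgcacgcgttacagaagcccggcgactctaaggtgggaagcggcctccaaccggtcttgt
Chac1: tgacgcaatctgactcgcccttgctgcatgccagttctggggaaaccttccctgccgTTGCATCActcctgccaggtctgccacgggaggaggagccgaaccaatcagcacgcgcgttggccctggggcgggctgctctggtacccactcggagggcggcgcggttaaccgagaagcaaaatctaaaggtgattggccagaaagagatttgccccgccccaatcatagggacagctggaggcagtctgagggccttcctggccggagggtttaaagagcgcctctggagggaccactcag
Shmt2: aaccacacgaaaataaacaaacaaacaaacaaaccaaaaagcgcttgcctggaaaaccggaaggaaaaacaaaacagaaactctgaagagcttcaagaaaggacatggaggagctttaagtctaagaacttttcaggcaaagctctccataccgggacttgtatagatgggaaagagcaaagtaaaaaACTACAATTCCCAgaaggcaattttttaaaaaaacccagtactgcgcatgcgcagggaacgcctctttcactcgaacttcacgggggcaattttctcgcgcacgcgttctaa
Vldlr: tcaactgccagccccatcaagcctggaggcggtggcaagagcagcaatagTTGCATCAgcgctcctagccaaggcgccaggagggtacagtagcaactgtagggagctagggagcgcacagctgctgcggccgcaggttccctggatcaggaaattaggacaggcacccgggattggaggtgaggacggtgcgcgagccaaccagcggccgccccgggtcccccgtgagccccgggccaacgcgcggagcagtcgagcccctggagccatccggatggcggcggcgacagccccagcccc

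The ATF4 element was present in the windows of 9 of these 30 members, all of the ATF4 type, where 4.51% of the 27025 genes with a window had it. Besides Asns and Chac1 these were Atf3, Fgf21, Nupr1, Pck2, Slc7a11, Trib3 and Vldlr, and Slc7a11 held 2 copies. The antioxidant element was present in 12 members, 6 of each type, against 13.99% of all genes. The types differ in how many genes had a window. The NRF2 type genes Hmox1, Gclc, Gsr and Gsta4 had none, nor had the ATF4 type genes Aldh1l2 and Slc7a5. Of the NRF2 type genes with a window all but Nqo1 held the antioxidant element, while most ATF4 type genes with a window did not. The Ronin element was present in 2 members, Shmt2 and Sesn2, against 1.69% of all genes. The Sesn2 site reads ACTACAGCTCCCA, with its first base at -196 of a window at chr4:132510407-132510706. A match is a description of the letters and says nothing of binding in these cells.

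No member of either type passed edgeR's test over all genes, while DESeq2's Wald test on the same 6 libraries called Chac1 and Asns higher and Shmt2 lower. By fold change the highest in the CKO were Chac1, Nupr1 (through 1 library), Hmox1 and Asns, followed by the transporter genes Slc7a5 and Slc3a2, and the lowest was Shmt2. The genotypes were separated, with all CKO libraries on one side of all controls, in 6 of the 22 tested ATF4 type genes, 4 higher and 2 lower, where 5.74% of all genes tested were separated as higher and 6.91% as lower. Among the 11 NRF2 type genes 1 was separated, as higher. At an unadjusted p under 0.05 by edgeR there were 3 ATF4 type genes higher and 1 lower, and 1 NRF2 type gene higher, against 2.22% of all genes higher and 4.36% lower. Log2 fold changes, given throughout as CKO over control, were positive for 15 of 22 ATF4 type genes (median 0.06) and for 8 of 11 NRF2 type genes (median 0.12), beside 45.0% of all genes tested and a median of -0.03. These medians are a description of genes chosen with earlier results known and carry no test.

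**Figure D1:**
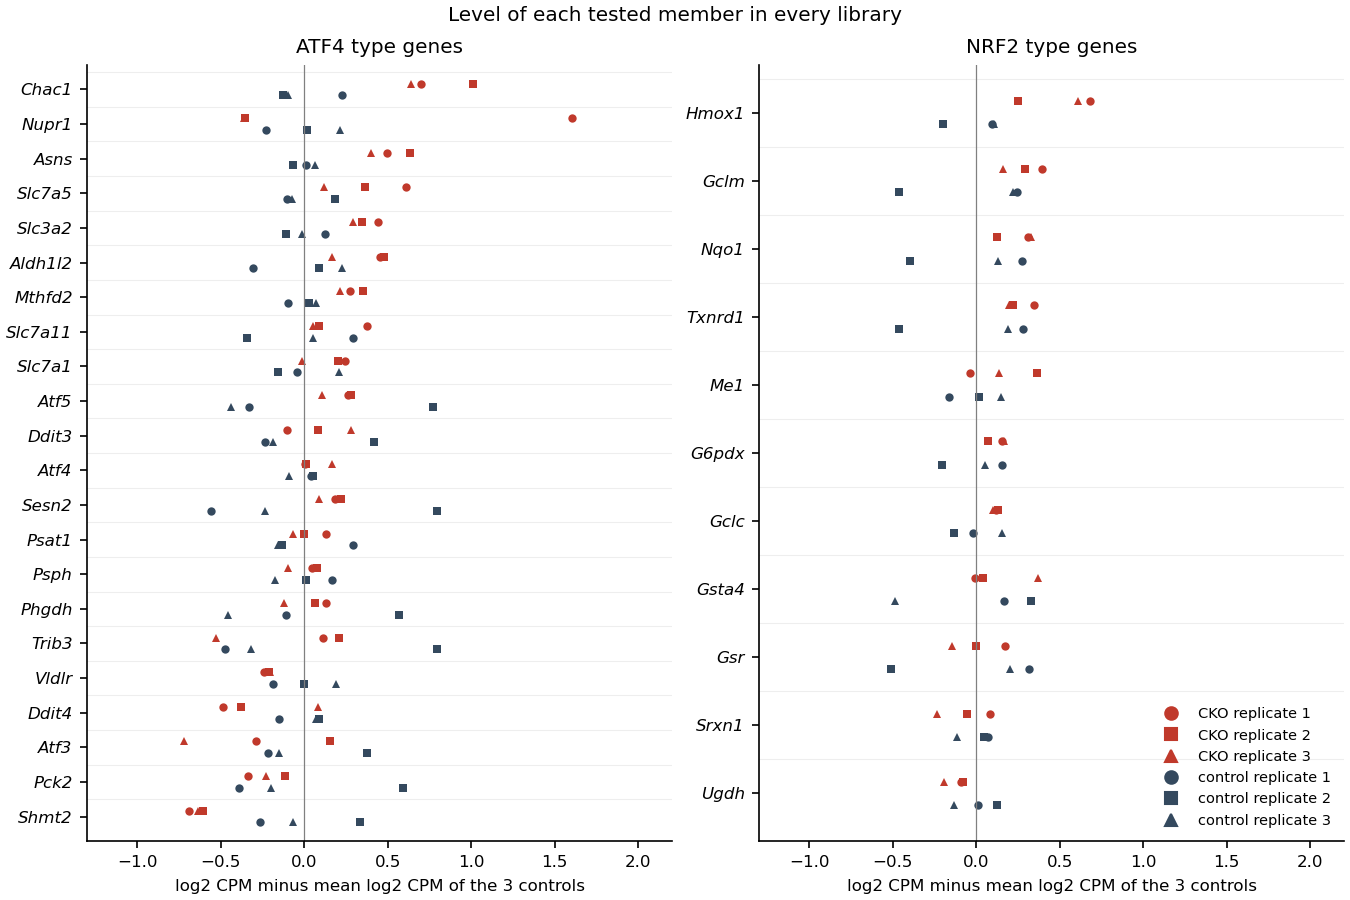
Each tested member is a row, with its log2 CPM in every library minus the mean log2 CPM of the 3 controls on the x axis (CKO in red above, controls in dark blue below, symbol by replicate number), sorted by fitted fold change. Chac1 and Asns have all 3 CKO libraries to the right of all controls, Shmt2 has them to the left, and control replicate 2 (dark squares) lies to the right in Atf5, Trib3 and Sesn2 and to the left in Gclm, Txnrd1 and Gsr.

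None of the 5 tested transcription factor genes of the response was separated between genotypes. Atf4, the messenger whose translation the pathway controls, stood at 155, 155 and 173 CPM in the CKO libraries and at 159, 160 and 145 CPM in the controls. The groups overlapped, and the log2 fold change was 0.06 ± 0.12 (SE, adjusted p = 0.961 by edgeR). Since ATF4 is controlled at translation, the messenger's level does not measure the protein. Ddit3, which encodes the stress factor CHOP, had 12.3, 14.0 and 16.1 CPM in the CKO and 11.3, 17.7 and 11.6 CPM in the controls. Atf3, another stress-induced factor of this family, was under 2 CPM in every library of both groups, at 0.967 ± 0.288 CPM in the CKO and 1.16 ± 0.277 CPM in the controls (SD, n = 3 each).

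Atf5, a related factor with a role in the mitochondrial unfolded protein response, stood at 81.1, 82.1 and 72.8 CPM in the CKO, against 53.7, 115 and 49.8 CPM in the controls. The CKO libraries were thus above control replicates 1 and 3 and below control replicate 2. With all libraries its log2 fold change was 0.11 ± 0.31 (adjusted p = 0.968 by edgeR), and without control replicate 2 it was 0.62 ± 0.10 (adjusted p = 0.0445), the one ATF4 type call of that comparison, where 0.487% of all genes were called higher. Without control replicate 1 or 3 its log2 fold change was -0.07.

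Nupr1, a small stress-induced chromatin protein gene, was high in one CKO library. It stood at 7.96, 2.05 and 2.04 CPM in CKO replicates 1, 2 and 3, against 2.24, 2.66 and 3.05 CPM in the controls. CKO replicate 1 is the library with 11209 CPM of lens markers, and the part of lens RNA in this value was not tested. The log2 fold change was 0.61 ± 0.54 with all libraries and -0.37 without CKO replicate 1. Cebpb, a factor gene that partners ATF4, had 15, 6 and 5 reads in the CKO and 8, 7 and 3 reads in the controls and was too low to be tested.

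The stress effectors differed among themselves. Chac1, which encodes a glutathione-degrading enzyme and is an established marker of ATF4 activity, had 206, 237 and 167 reads in the CKO and 131, 92 and 108 reads in the controls. These are 7.13, 8.85 and 6.83 CPM in the CKO, against 5.14, 4.01 and 4.11 CPM in the controls. All CKO libraries lay above all controls, a 1.72-fold difference with a log2 fold change of 0.78 ± 0.20 (adjusted p = 0.256 by edgeR). DESeq2's Wald test called it (adjusted p = 0.0292), with 0.817% of all genes called higher by that test, and its adjusted p spanned 0.0292 to 0.9999 over 15 alternatives.

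Trib3, a pseudokinase that feeds back on ATF4, stood at 3.95, 4.22 and 2.54 CPM in the CKO and at 2.63, 6.33 and 2.93 CPM in the controls. Sesn2, whose product senses leucine and restrains mTORC1, had 22.3, 22.8 and 20.8 CPM in the CKO, against 13.3, 33.9 and 16.6 CPM in the controls. In both genes control replicate 2 was the highest of all 6 libraries. For Sesn2 the log2 fold change was 0.05 ± 0.33 with all libraries and 0.56 without control replicate 2. There edgeR gave an unadjusted p of 0.00498 and an adjusted p of 0.166, so it was not called. Ddit4, another mTORC1 inhibitor gene that responds to hypoxia and glucocorticoids as well, was at 70.5 ± 15.4 CPM in the CKO and 83.4 ± 7.52 CPM in the controls (SD, n = 3 each).

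Vldlr, a receptor of lipoproteins and of the neuronal guidance protein reelin, was the second ATF4 type gene separated as lower. It stood at 101, 102 and 103 CPM in the CKO, against 104, 119 and 136 CPM in the controls. The nearest libraries of the groups, CKO replicate 3 and control replicate 1, lay close together, and the log2 fold change was -0.23 ± 0.14 (adjusted p = 0.916 by edgeR). Summed progenitor, blood vessel and pigment epithelium markers were each lower in every CKO library as well. The vessel sum, most of it Kdr, was 255 to 278 CPM in the CKO, against 295 to 354 CPM in the controls. The progenitor sum, the largest part of it Ccnd1, was 7200.1 to 7659 CPM in the CKO, against 7711 to 7998 CPM in the controls. Of the 9 progenitor markers 4 had a positive log2 fold change and 5 a negative one. No marker of these lists was at 0 reads in a group. The part of these cell types in the levels of Vldlr and of Shmt2, a gene of mitochondrial folate metabolism, was not tested.

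Genes of amino acid synthesis split into Asns and the serine pathway. Asns, asparagine synthetase, stood at 83.6, 91.9 and 78.2 CPM in the CKO, against 59.6, 56.5 and 62.0 CPM in the controls. Every CKO library was above every control, and the spread within each group was small beside the difference between them (84.5 ± 6.90 CPM in the CKO and 59.4 ± 2.75 CPM in the controls, SD, n = 3 each). The difference was 1.42-fold, with a log2 fold change of 0.51 ± 0.13 and an edgeR adjusted p = 0.232. It was called by DESeq2's Wald test (adjusted p = 0.0154) and had a log2 fold change between 0.45 and 0.58 under all 15 alternatives, with adjusted p between 0.0154 and 0.9999.

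The serine synthesis genes overlapped between genotypes. Phgdh, the first enzyme of the pathway, stood at 21.0, 20.1 and 17.7 CPM in the CKO and at 17.8, 28.5 and 14.0 CPM in the controls. Psat1, the transaminase of the next step, was at 151, 138 and 132 CPM in the CKO and at 169, 126 and 124 CPM in the controls, with a fitted log2 fold change of 0.0058 ± 0.16 (adjusted p = 0.997 by edgeR). Psph, the phosphatase of the last step, averaged 20.9 ± 1.30 CPM in the CKO and 20.9 ± 2.45 CPM in the controls (SD, n = 3 each).

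The mitochondrial genes of this group pointed in different directions. Shmt2, the mitochondrial enzyme that turns serine into glycine and a one-carbon unit, stood at 112, 119 and 117 CPM in the CKO, against 151, 228 and 173 CPM in the controls. All CKO libraries lay below all controls, and the CKO libraries were closely grouped while control replicate 2 was highest. The difference was 1.58-fold, with a log2 fold change of -0.66 ± 0.17 (adjusted p = 0.255 by edgeR). It was -0.47 without control replicate 2 (adjusted p = 0.0994) and -0.56 ± 0.10 after a per-library GC trend was removed, where it was called (adjusted p = 0.0495, with 0.946% of all genes called lower). DESeq2's Wald test called it as well (adjusted p = 0.0497, with 1.46% of all genes lower), and over 15 alternatives its adjusted p spanned 0.0495 to 0.907. Shmt2 is the gene whose promoter window, printed above, holds the Ronin element ACTACAATTCCCA, and Sesn2, which holds the element ACTACAGCTCCCA, was not separated.

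Mthfd2, the folate dehydrogenase that uses the one-carbon unit made by SHMT2, stood on the other side. It was at 47.7, 50.4 and 45.8 CPM in the CKO, against 36.9, 40.2 and 41.5 CPM in the controls. The groups did not overlap, with a fitted log2 fold change of 0.28 ± 0.13 (adjusted p = 0.803 by edgeR). Aldh1l2, which oxidises mitochondrial formyl folate, stood at 26.4, 26.8 and 21.6 CPM in the CKO and 15.6, 20.5 and 22.5 CPM in the controls, with CKO replicate 3 inside the control range. Pck2, the mitochondrial enzyme that makes phosphoenolpyruvate, averaged 30.8 ± 2.35 CPM in the CKO and 37.7 ± 14.5 CPM in the controls (SD, n = 3 each), with 54.3 CPM in control replicate 2.

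All 4 amino acid transporter genes had positive log2 fold changes, between 0.14 and 0.37, and none passed the test. SLC3A2 is the heavy chain that carries the light chains SLC7A5 and SLC7A11 to the cell surface, for leucine and for cystine uptake. Slc3a2 stood at 163, 152 and 146 CPM in the CKO, against 130, 111 and 118 CPM in the controls. The groups did not overlap, and the log2 fold change was 0.36 ± 0.13 (adjusted p = 0.582 by edgeR). Slc7a5 had 277, 234 and 197 CPM in the CKO and 169, 206 and 172 CPM in the controls, so that CKO replicate 3 lay below control replicate 2. Its log2 fold change was 0.37 ± 0.17 (adjusted p = 0.786 by edgeR). Slc7a11, the cystine transporter, was at 44.3, 36.4 and 35.4 CPM in the CKO and 41.8, 27.0 and 35.4 CPM in the controls. Slc7a1, which carries arginine and lysine, averaged 81.3 ± 7.59 CPM in the CKO and 73.9 ± 9.78 CPM in the controls (SD, n = 3 each).

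The secreted factors of the response were at or near 0. Fgf21, a hormone gene induced by ATF4 in liver and muscle, had 0 reads in all 6 libraries, which allows a level of up to 0.104 to 0.131 CPM in a library if 3 reads are taken as the limit of a count of 0. Gdf15, a stress cytokine gene, had 4, 3 and 2 reads in the CKO and 0, 12 and 1 reads in the controls. Neither gene could be tested. This limit covers counting error alone, because amplified reads were not traced to molecules.

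**Figure D2:**
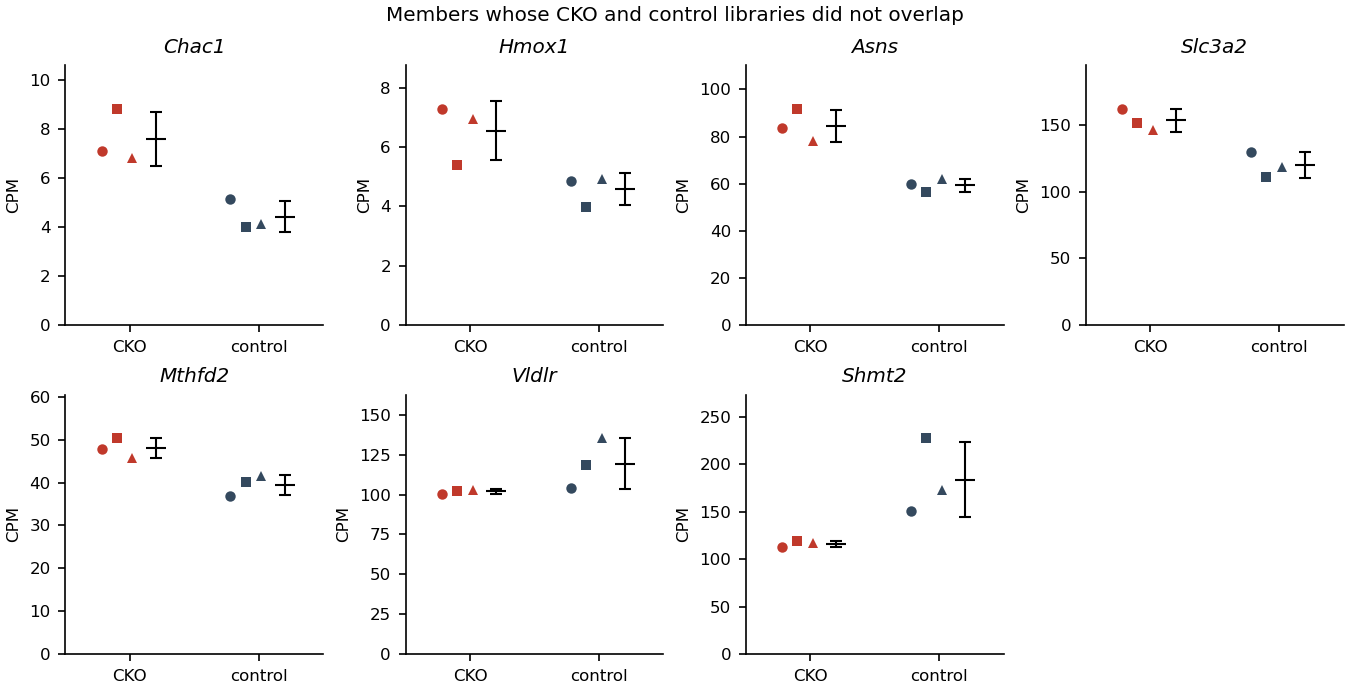
CPM of the 7 members whose CKO libraries (red, left) did not overlap the controls (dark blue, right), with each library as a symbol by replicate number and the mean ± SD of 3 libraries in black. Chac1, Hmox1, Asns, Slc3a2 and Mthfd2 are higher in the CKO, Vldlr and Shmt2 are lower, and none passed edgeR's test over all genes.

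The NRF2 type genes are described in groups by the function of their products, from RNA counts alone. Hmox1, haem oxygenase, was the member with the largest difference. It had 211, 145 and 170 reads in the CKO and 124, 91 and 129 reads in the controls, or 7.30, 5.41 and 6.95 CPM in the CKO, against 4.87, 3.97 and 4.91 CPM in the controls. All CKO libraries were above all controls, at 1.43-fold and a log2 fold change of 0.52 ± 0.20 (adjusted p = 0.691 by edgeR). It was not called under any of the 15 alternatives, with adjusted p between 0.365 and 0.9999. Hmox1 is also abundant in macrophages and in cells that handle red blood cells. The 14 microglia and macrophage markers summed to 50.2 to 66.3 CPM in the CKO and 51.7 to 62.9 CPM in the controls, with none at 0 reads in either group. The 10 erythroid markers summed to 4.78 to 15.5 CPM in the CKO and 7.73 to 18.0 CPM in the controls. The 3 of them at 0 in each group were the globin genes Hba-a2, Hbb-b1 and Hbb-b2. Another globin gene, Hbb-y, had 31 to 165 reads in the CKO libraries and 39 to 224 in the controls. The erythroid sum may therefore understate blood. Of the 4 tested erythroid markers 3 had a negative log2 fold change and 1 a positive one. Only Alas2 was separated, as lower, at 2.46, 2.24 and 3.68 CPM in the CKO, against 5.10, 6.02 and 4.34 CPM in the controls. The part of macrophages or of blood in the Hmox1 level was not tested.

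Nqo1, the quinone reductase often used to read NRF2 activity, was at 2.42, 2.13 and 2.45 CPM in the CKO and at 2.36, 1.48 and 2.13 CPM in the controls. The groups overlapped, and control replicate 2 was lowest. Its log2 fold change was 0.23 ± 0.25 (adjusted p = 0.943 by edgeR).

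Glutathione genes overlapped between genotypes in each case. Gclm, the modifier subunit of the rate-limiting enzyme of glutathione synthesis, had 31.3, 29.2 and 26.6 CPM in the CKO and 28.2, 17.3 and 27.7 CPM in the controls. Gclc, its catalytic subunit, was at 68.9, 69.4 and 67.8 CPM in the CKO and 62.5, 57.8 and 70.5 CPM in the controls. The CKO libraries of Gclc lay within 2 CPM of each other, inside the control range. Gsr, which reduces oxidised glutathione, averaged 63.8 ± 7.03 CPM in the CKO and 65.1 ± 18.3 CPM in the controls. Gsta4, a glutathione transferase for lipid peroxidation products, averaged 20.7 ± 3.02 CPM in the CKO and 19.3 ± 5.29 CPM in the controls (SD, n = 3 each).

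Thioredoxin and NADPH genes were likewise not separated. Txnrd1, cytosolic thioredoxin reductase, had 352, 323 and 318 CPM in the CKO, against 336, 201 and 316 CPM in the controls. Control replicate 2 was again the lowest library, and the log2 fold change was 0.22 ± 0.20 with all libraries and 0.03 without it. Srxn1, sulfiredoxin, averaged 23.4 ± 2.58 CPM in the CKO and 24.5 ± 1.65 CPM in the controls. G6pdx, which makes NADPH in the pentose phosphate pathway, averaged 48.5 ± 1.74 CPM in the CKO and 44.6 ± 5.54 CPM in the controls. Me1, cytosolic malic enzyme, stood at 4.74, 6.27 and 5.36 CPM in the CKO and at 4.36, 4.93 and 5.41 CPM in the controls. Ugdh, which makes UDP-glucuronate for conjugation and matrix synthesis, stood at 63.0, 63.7 and 58.8 CPM in the CKO and at 67.8, 73.4 and 61.3 CPM in the controls, with a fitted log2 fold change of -0.13 ± 0.13 (adjusted p = 0.940 by edgeR).

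Scaled by length (CPM per 1000 bases of annotated exons), Atf4 was the member with the highest level, at 68.4 in the CKO and 65.6 in the controls. Slc7a5 came next in the CKO at 63.6, against 49.2 in the controls, and Shmt2 stood at 37.3 in the CKO, against 59.2 in the controls. Txnrd1 led the NRF2 type genes on this scale at 46.7 in the CKO and 40.1 in the controls. Exon lengths come from GENCODE M21 on GRCm38, not from the annotation behind the counts, so this order is approximate.

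Control replicate 2 was the outermost library of many members. It was the highest of the 6 libraries in 9 of 22 ATF4 type genes and the lowest in 5. In the NRF2 type genes it was the lowest in 7 of 11 and the highest in 1. Over all genes tested it was highest in 34.9% and lowest in 34.0%. Relative to the mean of control replicates 1 and 3 on the log2 CPM scale, it was higher by 1.18 in Sesn2, 1.17 in Trib3, 1.16 in Atf5, 0.89 in Pck2 and 0.85 in Phgdh. The deviation was -0.77 in Gsr, -0.70 in Txnrd1 and -0.69 in Gclm. Transcripts of Sesn2, Trib3, Atf5 and Phgdh have between 57.2% and 61.7% GC, while Gclm has 42.1%. Pck2 at 51.0%, Gsr at 50.1% and Txnrd1 at 49.7% lie close to the median of 49.8% over all genes tested. Across the 22 ATF4 type genes the deviation of control replicate 2 had a Spearman's rho of 0.56 with GC content, as it did across all 14489 genes with a GC value, and across the 11 NRF2 type genes rho was -0.05. These rank correlations describe genes within the same libraries.

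**Figure D3:**
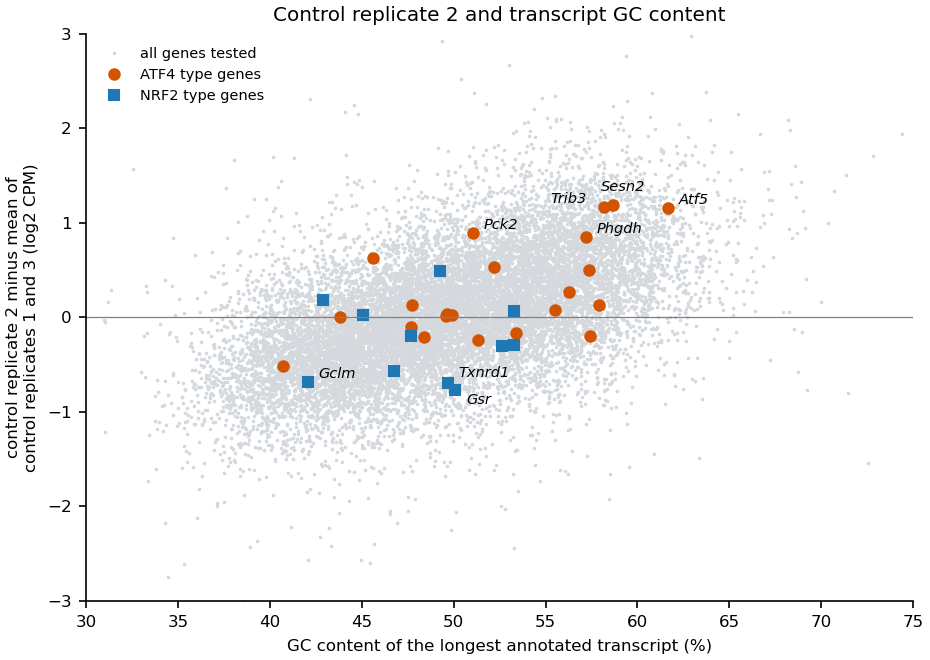
The deviation of control replicate 2 from the mean of the other controls (y axis, log2 CPM) against GC content of the longest annotated transcript (x axis, %) for all genes tested (grey), ATF4 type genes (orange circles) and NRF2 type genes (blue squares). Sesn2, Trib3 and Atf5 lie over 1.1 above 0 at a high GC content, Gsr, Txnrd1 and Gclm lie under -0.65, and 7 of 14489 genes fall outside the axes.

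Without control replicate 2 the median of the ATF4 type genes was higher and that of the NRF2 type genes lower than with all libraries, and single genes of each type moved either way. The median log2 fold change of the 22 ATF4 type genes became 0.31, with 17 positive, beside a median of -0.0071 over all genes. That of the 11 NRF2 type genes became 0.06, with 8 positive. At an unadjusted p under 0.05 by edgeR, 7 ATF4 type genes were then higher (Atf5, Chac1, Asns, Sesn2, Mthfd2, Slc7a5 and Slc3a2) and 1 lower (Shmt2), against 4.38% of all genes higher and 5.38% lower, and no NRF2 type gene was in either direction. Trib3 had a log2 fold change of 0.37 in place of -0.14, and Phgdh of 0.31 in place of -0.04. Removal of a per-library GC trend, with all 6 libraries kept, gave a median of 0.13 for both types, beside -0.0060 over all genes. Atf5 then had a log2 fold change of 0.32 and Sesn2 of 0.22. The GC comparison was added after the data were seen, and leaving out control replicate 2 is one of 6 such omissions, among which the ATF4 type median was -0.02 without control replicate 3. The difference between the types was not tested.

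Without CKO replicate 1, the library with the most lens RNA, the ATF4 type median was 0.04 with 12 of 22 genes positive, and the NRF2 type median was 0.17 with 8 of 11 positive. The log2 fold change was then 0.83 for Chac1, 0.52 for Asns, 0.43 for Hmox1 and -0.64 for Shmt2. Those of the transporter genes were 0.32 for Slc3a2 and 0.24 for Slc7a5. All 6 genes thus kept their direction without that library.

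**Figure D4:**
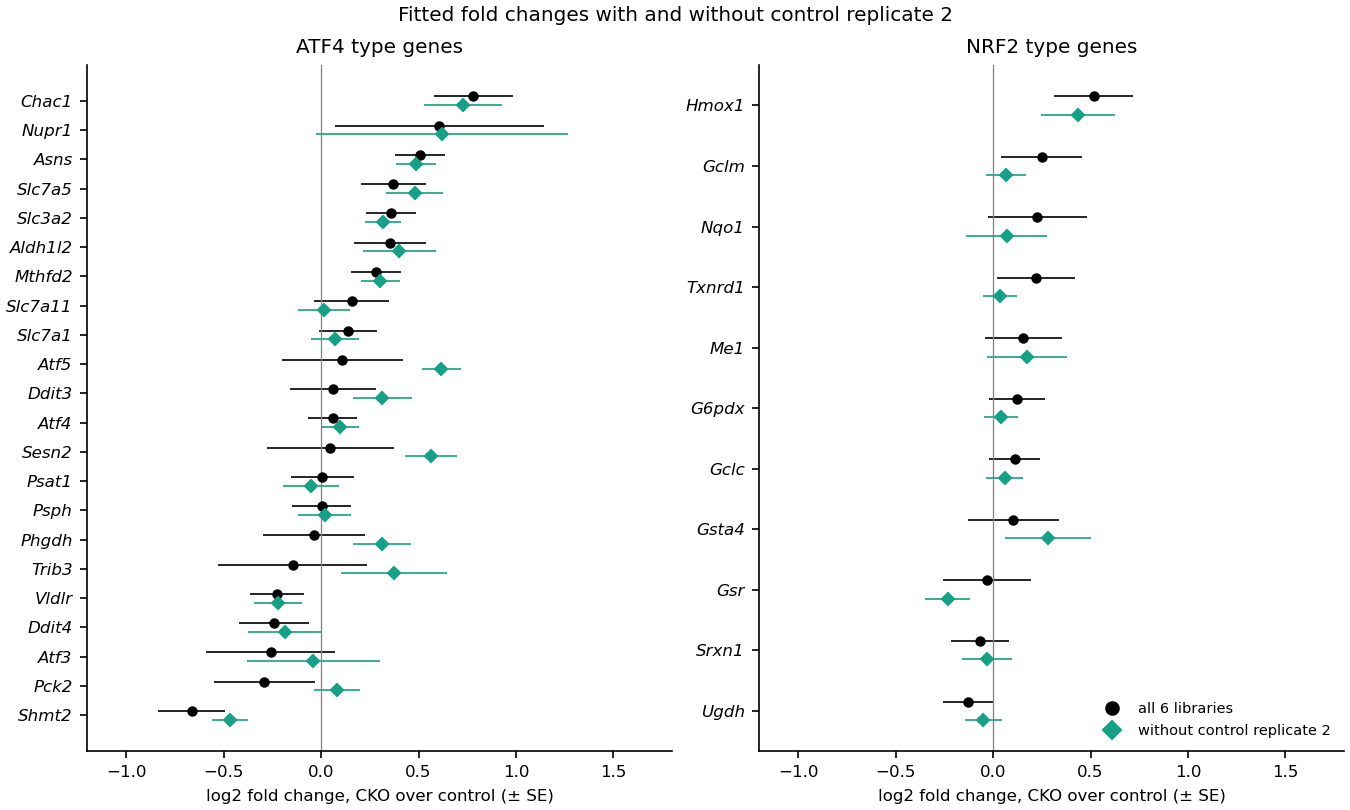
Log2 fold change of each tested member, CKO over control, with its SE, from all 6 libraries (black circles) and without control replicate 2 (green diamonds). Atf5, Sesn2, Phgdh and Trib3 move to the right without that library, Gclm, Nqo1, Txnrd1 and Gsr move to the left, and Chac1, Asns, Slc3a2 and Mthfd2 change by less than 0.06.

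Genes upstream and beside these targets were examined as lists written from textbook knowledge, with earlier results of these data known. None of 16 tested genes for the eIF2 kinases, eIF2, eIF2B and the phosphatase subunits was called (median log2 fold change -0.02), and 1 was separated, as higher, a share near the 5.74% of all genes separated in that direction. This was Oma1, the mitochondrial protease whose cleavage of DELE1 relays mitochondrial stress to the kinase HRI in human cells. Oma1 stood at 9.35, 9.33 and 9.41 CPM in the CKO, against 8.28, 7.11 and 6.85 CPM in the controls (log2 fold change 0.34 ± 0.16, edgeR adjusted p = 0.845). None of the 4 kinase genes was separated. Eif2ak2, which encodes PKR, had 13.3, 12.7 and 13.1 CPM in the CKO and 12.9, 9.16 and 9.71 CPM in the controls. Eif2ak3, which encodes PERK, had 49.6, 46.1 and 45.3 CPM in the CKO and 47.9, 30.6 and 48.8 CPM in the controls. Eif2ak1, which encodes HRI, averaged 62.8 ± 2.35 CPM in the CKO and 65.3 ± 3.14 CPM in the controls, and Eif2ak4, which encodes the amino acid sensor GCN2, averaged 58.7 ± 2.58 CPM in the CKO and 54.9 ± 1.74 CPM in the controls. Ppp1r15a, the feedback phosphatase subunit GADD34 that ATF4 and CHOP induce, had 10.8, 9.37 and 10.3 CPM in the CKO and 11.3, 16.5 and 9.25 CPM in the controls.

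Cytosolic aminoacyl-tRNA synthetase genes, several of them ATF4 targets, held no call among 20 tested (median -0.06). Farsb and Wars were separated as higher and Lars as lower, beside 5.74% of all genes higher and 6.91% lower. Wars, for tryptophan, stood at 136, 127 and 129 CPM in the CKO, against 120, 120 and 121 CPM in the controls. Farsb, for phenylalanine, stood at 111, 108 and 112 CPM in the CKO, against 101, 95.4 and 99.5 CPM in the controls. Lars, for leucine, stood at 114, 114 and 118 CPM in the CKO, against 147, 244 and 144 CPM in the controls (log2 fold change -0.62 ± 0.22, edgeR adjusted p = 0.548), with control replicate 2 highest.

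None of 20 genes of the endoplasmic reticulum unfolded protein response was called (median -0.05). Herpud1, a degradation factor that ATF4 also induces, was the one separated gene of the 20, a share near that over all genes, at 51.1, 50.7 and 47.4 CPM in the CKO, against 47.0, 34.8 and 39.6 CPM in the controls. The main chaperone of the compartment, Hspa5, had 469, 489 and 453 CPM in the CKO and 627, 548 and 476 CPM in the controls.

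None of 10 NRF2 regulators was called or separated (median -0.09). Nfe2l2 had 23.2, 24.9 and 27.1 CPM in the CKO and 26.2, 15.3 and 22.7 CPM in the controls, and Keap1, its inhibitor, had 63.4, 61.9 and 59.5 CPM in the CKO and 56.9, 71.7 and 59.0 CPM in the controls. Among 24 tested further antioxidant genes none was called (median 0.03), and Gstm1, a glutathione transferase, was the one separated gene, again a share near that over all genes. It stood at 12.5, 12.3 and 12.2 CPM in the CKO, against 9.86, 6.15 and 10.5 CPM in the controls (log2 fold change 0.48 ± 0.22, edgeR adjusted p = 0.805). Reads of Gstm1 can be divided with near-identical glutathione transferase genes.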

How the data were processed

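Polyadenylated RNA of embryonic mouse retina was measured in 6 libraries, grouped by sample title into 3 CKO and 3 control libraries. The authors deposited raw read counts per gene symbol. The submitters' processing notes name BWA 0.7.6a-r433, HTSeq 0.5.4p3, DESeq 2.13 and build mm9, without roles; its annotation and strand setting were not stated, and antisense or overlapping genes cannot be told apart. From the deposited table, 3 merge-marker lines and 1 blank line were skipped and 1 repeated gene was kept once.

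These counts were tested with edgeR 4.0.16 in R 4.3.3: filterByExpr (minimum count 10; 14609 genes tested, 8832 removed), TMM scaling, a genotype-only quasi-likelihood test, Benjamini-Hochberg adjustment over all genes tested and a threshold of 0.05. SE is the absolute log2 fold change over the square root of F. The procedure was tested on simulated data. Alternatives were DESeq2 size factors, library sizes alone, DESeq2 1.42.0, limma-voom (limma 3.58.1), no filter, at least 1 CPM in 3 libraries, the replicate number as a block, and omission of each library. Added after the data were seen were removal of a per-library loess trend on transcript GC (99.2% of genes tested had a value), alone and with the block. No libraries agreed within sampling noise (lowest chi-square per degree of freedom 5.77). Members separated between groups, largest or most abundant in their role, or called under an alternative have their value in every library printed. Members and lists were chosen with earlier results of these data known. One progenitor marker is not reported here.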

Additional observations from a re-analysis of the deposited data

How the results depend on the processing

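With all 6 libraries 0 of 22 ATF4 type genes were called by edgeR, with 4 at an unadjusted p under 0.05, and 0 of 11 NRF2 type genes, with 1. The ATF4 type count became 3 with DESeq2's Wald test, 0 to 1 when each library was left out in turn, and 1 with the GC trend removed, and was 0 under the other alternatives. The NRF2 type count was 0 under all 15. The ATF4 type median of 0.0607 lay between -0.0198 and 0.3084 over the omissions, the upper end without control replicate 2, and that of the NRF2 type (0.1228) between 0.0590 and 0.2247. Over all genes the 131 calls became 326 with DESeq2's Wald test, 250 with the GC trend removed and the replicate block together, and 16 (without CKO replicate 3) to 219 (without control replicate 2) over the omissions. DESeq2 size factors gave 132 and library sizes alone 111. Same-numbered libraries deviated together with correlations from -0.01 to 0.34, so the numbers were not taken to pair them, and the replicate block gave 153 calls over all genes, 0 among the ATF4 type and 0 among the NRF2 type genes, with medians of 0.11 and 0.13. Of 255 single-gene comparisons over 17 members, 244 kept direction and side of the threshold and 5 became calls. The other 6 changed sign, none of them called: Atf5 ran from -0.0689 to 0.617, Nupr1 from -0.369 to 0.922 and Psat1 from -0.0517 to 0.167 over the omissions. The cause of these changes was not tested. With 3 libraries a group, a 1.72-fold difference with no overlap between the groups (Chac1) was called by DESeq2's Wald test and not by edgeR.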
